A study of Homo sapiens with 12 samples.

Results

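The 8 genes described here are 6 metallothionein genes (MT1E, MT1F, MT1G, MT1H, MT1X and MT2A), the zinc-sensing transcription factor MTF1 and the zinc exporter SLC30A1. They were chosen by symbol, taking for each symbol the Ensembl identifier with the most reads, and are 8 of 57905 identifiers in the count table. All 8 were among the 13832 identifiers with enough reads to be tested. The cells were OCI-AML3, an established line of human acute myeloid leukaemia, and 12 libraries were read. In the drug arm, 3 libraries came from cells given 500 µM SA for 6 days and 3 from cells given vehicle. SA is not spelled out in the labels, and is the usual abbreviation of succinylacetone, an inhibitor of heme synthesis. In the guide arm, 3 libraries came from cells carrying CRISPR guides against ALAS1 (sgALAS1) and 3 from cells with scrambled guides (sgSCR). Both received doxycycline for 7 days to switch on guide expression. ALAS1 encodes the enzyme of the first, rate-limiting step of heme synthesis in cells other than red cell precursors. The drug arm carried no guide per the labels, no doxycycline is recorded for it, and the labels do not say whether the guide-bearing cells were clones or pools. The study set both kinds of heme synthesis block beside the copper-dependent form of cell death called cuproptosis.

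Metallothioneins are small cysteine-rich proteins that bind zinc, copper and cadmium in the cytosol and so buffer the free metal. Their genes lie side by side on chromosome 16 and are switched on when MTF1, a zinc finger protein, binds zinc and attaches to short metal response elements in their promoters. SLC30A1, another target of MTF1, carries zinc out of the cell across the plasma membrane, and glucocorticoids and oxidative stress also raise metallothionein transcription.

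The metal response element is the sequence that the metallothionein genes and SLC30A1, as targets of MTF1, are known to share. Promoters, that of MTF1 included, were therefore searched for its core, TGCACNC or TGCGCNC, on both strands, in the 250 bases before the transcription start. Sequences are from RefSeq on GRCh38.p14, which is not the hg19 build of the count table, and 5 of the 8 members had an entry: MT2A, MT1H, MT1X, SLC30A1 and MTF1. They are printed 5′ to 3′ along the gene's own strand, with each match in capitals, read as TGCACNC or TGCGCNC or as the reverse complement of either. The 4 windows shown are those that held a match. MT2A lies at chr16:56608334-56608583 on the plus strand, MT1H at chr16:56669564-56669813 on the plus strand, MT1X at chr16:56682220-56682469 on the plus strand and SLC30A1 at chr1:211579162-211579411 on the minus strand.
MT2A: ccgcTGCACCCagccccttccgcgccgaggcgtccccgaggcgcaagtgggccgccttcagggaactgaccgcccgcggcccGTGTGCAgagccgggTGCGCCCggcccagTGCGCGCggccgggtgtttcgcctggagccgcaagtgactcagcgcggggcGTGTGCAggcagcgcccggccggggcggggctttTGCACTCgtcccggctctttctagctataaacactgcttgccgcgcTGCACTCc
MT1H: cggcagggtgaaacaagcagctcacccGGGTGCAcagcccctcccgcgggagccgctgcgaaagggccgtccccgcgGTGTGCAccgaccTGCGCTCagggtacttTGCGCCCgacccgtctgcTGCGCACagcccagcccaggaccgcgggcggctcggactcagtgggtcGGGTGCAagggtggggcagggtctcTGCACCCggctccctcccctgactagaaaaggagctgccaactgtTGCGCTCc
MT1X: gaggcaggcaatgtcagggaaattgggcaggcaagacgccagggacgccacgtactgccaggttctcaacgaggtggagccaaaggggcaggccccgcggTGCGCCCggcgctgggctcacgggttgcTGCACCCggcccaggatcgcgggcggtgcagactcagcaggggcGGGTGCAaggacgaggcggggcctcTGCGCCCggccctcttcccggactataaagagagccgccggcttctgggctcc
SLC30A1: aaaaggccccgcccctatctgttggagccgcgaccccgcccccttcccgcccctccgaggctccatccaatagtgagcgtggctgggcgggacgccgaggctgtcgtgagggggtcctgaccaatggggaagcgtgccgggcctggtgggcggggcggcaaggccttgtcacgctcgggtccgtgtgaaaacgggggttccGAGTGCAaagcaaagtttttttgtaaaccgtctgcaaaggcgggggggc
MT1H held 8 matches, MT2A held 7, MT1X held 4 and SLC30A1 held 1, and the MTF1 window held 0. Of 35116 promoter windows of the same length, 24.8% held at least 1 match, 0.370% at least 4 and 0.0313% at least 7. A match is a run of letters and not a measured binding site.

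Libraries held between 4658513 and 7339843 reads, with a median of 5573540. They were made with QuantSeq, which reads a tag near the 3′ end of each transcript, so that a count follows the number of transcripts and not their length. Levels are given as normalised CPM, the share of a library's reads scaled to a common depth. Changes are log2 fold changes with the standard error (SE) beside them, and adjusted p-values are those of edgeR's quasi-likelihood test after Benjamini-Hochberg adjustment across the 13832 genes. Nothing in the labels says that the 3 libraries of a group came from separate cultures, so p-values measure the spread between these libraries, which may be technical. Of all tested genes, 4.83% rose and 6.24% fell under SA, and 4.88% rose and 6.85% fell in sgALAS1 cells. With library totals alone as the scaling, the SA split was 508 higher and 1076 lower, against 668 higher and 863 lower with TMM scaling. ALAS1, the target of the guides, had 26.2, 26.3 and 27.3 CPM in the sgALAS1 libraries, against 38.6, 41.9 and 37.4 CPM in sgSCR cells, and fell by 0.56 on the log2 scale (SE 0.14, adjusted p = 0.00777). This call was lost when sgSCR replicate 2 was left out (-0.51, adjusted p = 0.0503), and a 3′ tag does not show whether the edited part of the gene is intact. All 6 myeloid identity genes examined, among them CD33 and SPI1, had enough reads to be tested, while the markers of other lineages CD3E, HBB and HBA1 had 0 reads in every library.

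Under SA, 3 of the 8 members fell (MT1E, MT1F and MT1G) and 1 rose (MTF1), set against 6.24% and 4.83% of all tested genes. In sgALAS1 cells 4 fell (MT1E, MT1F, MT1G and MT1H) and 1 rose (MT2A), set against 6.85% and 4.88%. The median log2 fold change of the 6 metallothioneins was -0.61 under SA and -0.80 in sgALAS1 cells, where the median of all tested genes was -0.0095 and -0.0034. In both arms MT1E, MT1F and MT1G were lower in each of the 3 treated libraries than in any of the 3 controls. The share of all tested genes with such a separation was not counted. MT1X in sgALAS1 cells, which did not pass the test, was separated in the same way. The arms parted at MT2A, MT1H and MT1G, for which the difference between the SA effect and the sgALAS1 effect passed its own test. In bulk RNA, fewer cells with a transcript and less of it per cell cannot be told apart.

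**Figure D1:**
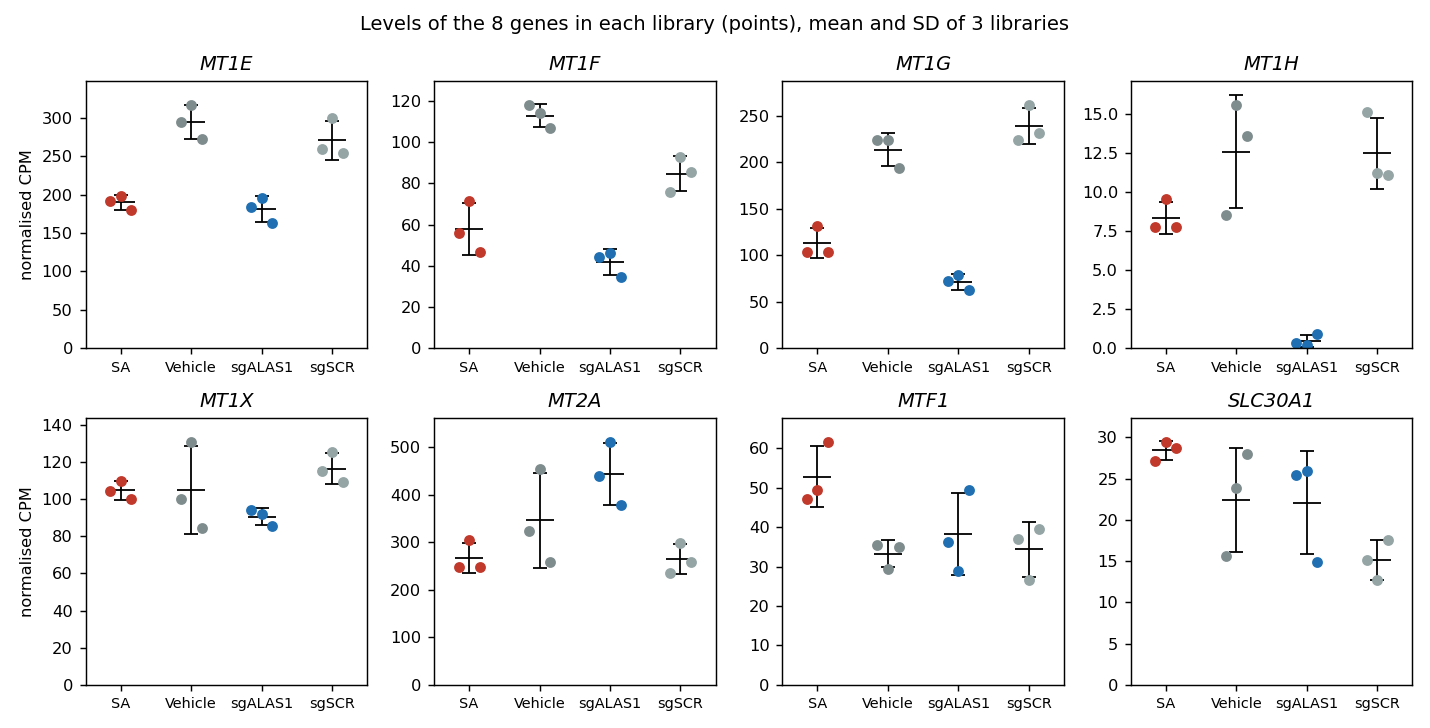
Normalised CPM of the 8 members in each of the 12 libraries (points) with the group mean and its SD (bars) on a linear axis from 0, in the order SA, vehicle, sgALAS1 and sgSCR, each panel with its own scale. MT1E, MT1F and MT1G sit lower in SA than in vehicle and lower in sgALAS1 than in sgSCR, the sgALAS1 points of MT1H lie near 0 (at most 0.887 CPM), and MT2A is highest on average in sgALAS1.

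MT1E (ENSG00000169715, chromosome 16) encodes one of the MT1 isoforms and was read at 192, 198 and 179 CPM in the SA libraries, against 295, 316 and 273 CPM in the vehicle libraries. It fell by 0.63 on the log2 scale (SE 0.11, adjusted p = 2.66e-04). The guide arm gave 184, 196 and 162 CPM in sgALAS1 cells, against 259, 299 and 254 CPM in sgSCR cells. The log2 fold change there was -0.58 (SE 0.11, adjusted p = 5.99e-04), and the groups did not overlap in either arm. The difference between the arms was -0.05 (SE 0.16, adjusted p = 0.938).

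MT1F (ENSG00000198417, chromosome 16) had 55.8, 71.2 and 46.5 CPM under SA, against 118, 114 and 107 CPM in vehicle. The log2 fold change was -0.97 (SE 0.15, adjusted p = 2.86e-05). In sgALAS1 cells it was read at 44.5, 46.0 and 34.4 CPM, against 75.7, 93.1 and 85.6 CPM in sgSCR cells. The log2 fold change of -1.02 (SE 0.15, adjusted p = 1.25e-05) differed from that under SA by 0.05 (SE 0.21, adjusted p = 0.951). Between the control groups of MT1F, each sgSCR library lay below each vehicle library, and the change of -0.41 did not pass the test (adjusted p = 0.173).

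MT1G (ENSG00000125144, chromosome 16), which lies next to MT1F and is transcribed from the opposite strand, was read at 104, 132 and 103 CPM under SA, against 224, 224 and 193 CPM in vehicle. It fell by 0.92 on the log2 scale (SE 0.13, adjusted p = 5.57e-06). In sgALAS1 cells the level was lower still, 72.4, 78.7 and 62.5 CPM, against 224, 261 and 232 CPM in sgSCR cells, a 3.35-fold reduction (log2 fold change -1.75, SE 0.13, adjusted p = 1.90e-11). The lowest sgSCR library lay level with the highest vehicle library, and the control groups differed by 0.16 (adjusted p = 0.649). In the test of the difference between the arms, the SA effect was less negative than the sgALAS1 effect by 0.82 on the log2 scale (SE 0.18, adjusted p = 0.0106).

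MT1H (ENSG00000205358, chromosome 16) was the member with the fewest reads and the widest gap between the arms. The SA libraries held 40, 48 and 48 reads of it, against 62, 92 and 77 reads in the vehicle libraries. After normalisation these were 7.77, 9.55 and 7.78 CPM under SA, against 8.55, 15.6 and 13.6 CPM in vehicle, and SA replicate 2 lay above vehicle replicate 1. The change of -0.58 did not pass the test (SE 0.30, adjusted p = 0.236). In the guide arm the sgALAS1 libraries held 2, 1 and 4 reads, against 76, 70 and 67 reads in the sgSCR libraries. Summed over the group and scaled to depth, the 7 reads of sgALAS1 cells against the 213 reads of sgSCR cells made a 29.0-fold lower level, with a 95% exact interval of 13.8 to 73.1 that covers counting error only. The fitted log2 fold change was -4.79 (SE 0.46, adjusted p = 4.50e-09). The SA effect lay 4.21 above the sgALAS1 effect (SE 0.57, adjusted p = 2.51e-05).

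MT1X (ENSG00000187193, chromosome 16), at the far end of the cluster, changed least in the drug arm. It was read at 105, 110 and 99.9 CPM under SA, against 99.9, 131 and 84.2 CPM in vehicle, with the SA libraries inside the vehicle range. The log2 fold change was -0.0028 (adjusted p = 0.994). In sgALAS1 cells it was read at 94.3, 92.1 and 85.6 CPM, against 115, 125 and 109 CPM in sgSCR cells. All 3 sgALAS1 libraries lay below all 3 sgSCR libraries, and the change of -0.36 did not pass the test (SE 0.13, adjusted p = 0.0802). A fit of the 2 guide groups alone called it (-0.37, adjusted p = 0.0369). The 2 arms differed by 0.36 for this gene (adjusted p = 0.471).

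MT2A (ENSG00000125148, chromosome 16), the metallothionein with the most reads over the 12 libraries, went in the other direction in the guide arm. It was read at 440, 511 and 379 CPM in sgALAS1 cells, against 236, 299 and 258 CPM in sgSCR cells. This was a 1.68-fold increase without overlap (log2 fold change 0.75, SE 0.15, adjusted p = 8.24e-04). Between the control groups, sgSCR against vehicle, the MT2A change was -0.39 and did not pass the test (adjusted p = 0.234). Under SA the levels were 249, 304 and 248 CPM, against 325, 455 and 259 CPM in vehicle. SA replicate 2 lay above vehicle replicate 3, and the change of -0.38 did not pass the test (SE 0.15, adjusted p = 0.109). It passed without vehicle replicate 3, at -0.54 with an adjusted p of 0.0194, and with no filter on low counts the adjusted p was 0.0289. Without vehicle replicate 2, the highest of the vehicle libraries, it was -0.13 with an adjusted p of 0.680, so that single libraries moved it over -0.54 to -0.13. The SA effect was below the sgALAS1 effect by 1.12 (SE 0.21, adjusted p = 0.00282), and the sign of that difference is opposite to that of MT1G and MT1H.

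**Figure D2:**
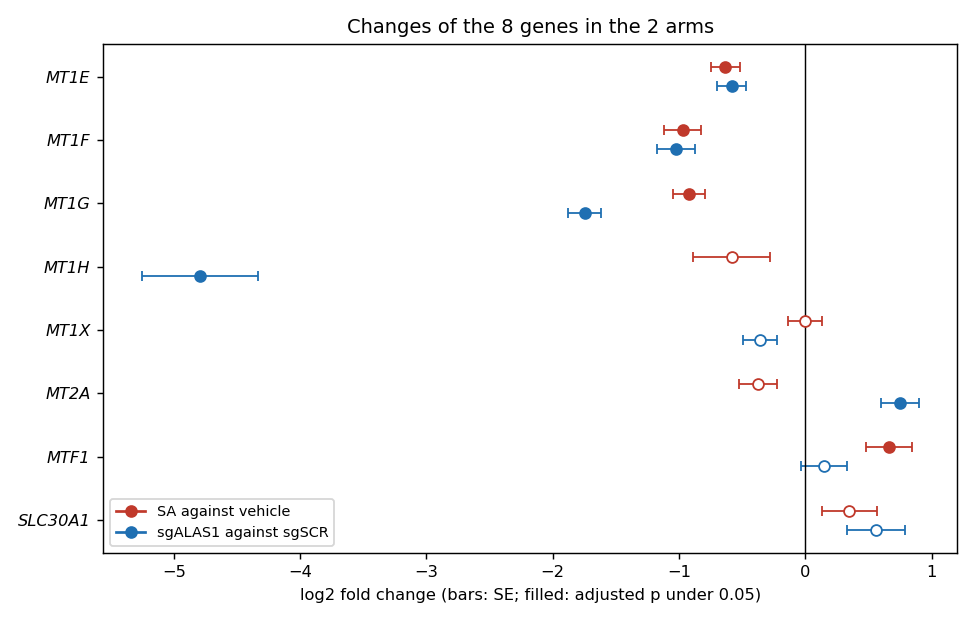
Log2 fold change of each member with its standard error (bars), SA over vehicle and sgALAS1 over sgSCR, from the fit of all 12 libraries. The 2 arms lie close together for MT1E (-0.63 in SA and -0.58 in sgALAS1) and for MT1F (-0.97 in SA and -1.02 in sgALAS1). MT2A lies at 0.75 in sgALAS1 and -0.38 in SA, and MT1H reaches -4.79 in sgALAS1 only.

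MTF1 (ENSG00000188786, chromosome 1), the sensor that activates the metallothionein genes, was read at 47.2, 49.5 and 61.6 CPM under SA, against 35.6, 29.3 and 35.0 CPM in vehicle. It rose by 0.67 (SE 0.18, adjusted p = 0.0158), the opposite direction to MT1E, MT1F and MT1G. The call was lost without vehicle replicate 2 (0.58, adjusted p = 0.0913) and without SA replicate 3 (0.54, adjusted p = 0.109). In the guide arm MTF1 was read at 36.3, 28.9 and 49.4 CPM in sgALAS1 cells, against 37.1, 26.5 and 39.5 CPM in sgSCR cells, and the groups overlapped (log2 fold change 0.15, adjusted p = 0.691). The difference between the arms was 0.52 and did not pass the test (adjusted p = 0.439).

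SLC30A1 (ENSG00000170385, chromosome 1), the exporter, was read at 27.2, 29.4 and 28.7 CPM under SA, against 15.6, 23.9 and 28.0 CPM in vehicle. The SA libraries were close together and the vehicle libraries spread, and the change of 0.35 did not pass the test (adjusted p = 0.343). With single libraries left out it lay between 0.14, without vehicle replicate 1, and 0.54, without vehicle replicate 3, and passed in none of these 6 cases. In sgALAS1 cells it was read at 25.5, 26.0 and 14.8 CPM, against 15.1, 12.7 and 17.5 CPM in sgSCR cells. The third sgALAS1 library lay within the sgSCR range, and the change was 0.56 (SE 0.23, adjusted p = 0.114). Without sgALAS1 replicate 3 it was 0.78 with an adjusted p of 0.0276. With each of the other libraries left out it did not pass, with a lowest value of 0.43 without sgALAS1 replicate 2 and adjusted p up to 0.350.

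Between the control groups, sgSCR against vehicle, 0 of the 8 members passed the test, where 1.43% of all tested genes did, 0.47% higher and 0.962% lower. At an unadjusted p under 0.05 the count was 3 by edgeR (MT1F, MT2A and SLC30A1, each lower in sgSCR), and DESeq2 called 0 of the 8. With library totals alone as the scaling, the split over all genes was 53 higher and 202 lower, against 65 higher and 133 lower with TMM scaling. The guide, doxycycline and the length of culture differ between these groups and cannot be told apart. The changes lay between -0.56 for SLC30A1 and 0.16 for MT1G. For the difference between the arms, 3 members passed, where 1.19% of all tested genes did: 2 passed with the SA effect above the sgALAS1 effect (MT1G and MT1H, where 0.759% of all tested genes did) and 1 with the SA effect below (MT2A, where 0.427% did).

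Over the 4 groups, the means of MT1E, MT1F and MT1H stood in 1 order, with vehicle highest, then sgSCR, SA and sgALAS1. The libraries of SA and sgALAS1 overlapped for MT1E (190 ± 9.63 CPM under SA and 181 ± 16.8 CPM in sgALAS1 cells, SD, n = 3 each), but not for MT1F (57.8 ± 12.5 CPM under SA and 41.6 ± 6.32 CPM in sgALAS1 cells) or MT1H. For MT1G and MT1X, sgSCR stood above vehicle, and SA and sgALAS1 followed below. For MT1G the lowest sgSCR library and the highest vehicle library were level at 224 CPM and the steps below were free of overlap, while for MT1X the sgSCR, vehicle and SA libraries overlapped and sgALAS1 lay below SA. MT2A had the order sgALAS1, vehicle, SA and sgSCR, in which each group overlapped with the next. MTF1 had the order SA, sgALAS1, sgSCR and vehicle, and SLC30A1 the order SA, vehicle, sgALAS1 and sgSCR, again with overlap between all neighbours.

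The 6 metallothioneins summed to 713, 825 and 684 CPM under SA, against 1070, 1255 and 930 CPM in vehicle, so that all SA libraries lay below all vehicle libraries. In sgALAS1 cells the sum was 836, 924 and 725 CPM, against 925, 1090 and 949 CPM in sgSCR cells. There the 3 sgALAS1 libraries lay below the 3 sgSCR libraries only by a narrow margin, 924 against 925 CPM, that depended on the scaling. As a share of all reads of the library, the sum was 0.0926% in sgALAS1 replicate 2, above the 0.0914% of sgSCR replicate 1, so the groups overlapped. The make-up of the sum shifted in the guide arm. MT2A made up 52.3 to 55.3% of it in sgALAS1 cells, against 25.5 to 27.5% in sgSCR cells. MT1G made up 8.52 to 8.66% in sgALAS1 cells, against 24.0 to 24.4% in sgSCR cells. MT1E made up 21.2 to 22.4% in sgALAS1 cells, against 26.7 to 28.0% in sgSCR cells, and MT1F 4.74 to 5.32% in sgALAS1 cells, against 8.18 to 9.02% in sgSCR cells. None of these ranges overlapped. Under SA, MT2A made up 34.9 to 36.9%, against 27.9 to 36.3% in vehicle, with overlap, and MT1G 14.6 to 15.9%, against 17.8 to 21.0% in vehicle, without. MT1X made up 13.3 to 14.7% under SA, against 9.06 to 10.4% in vehicle. With shares that sum to a whole, a rise of one member lowers the others.

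**Figure D3:**
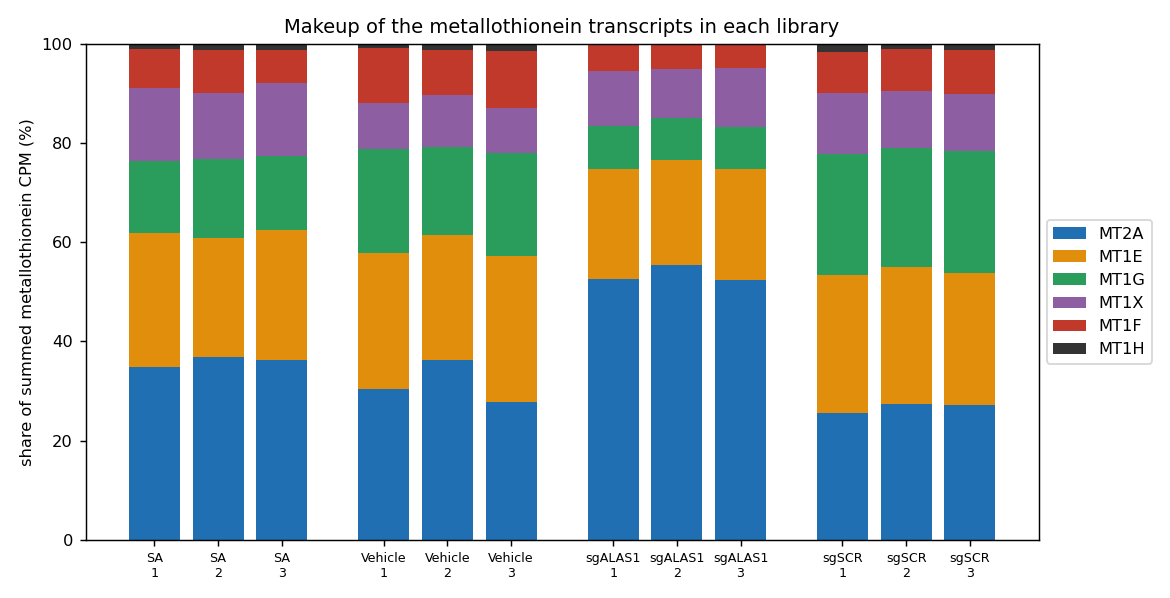
Share of each of the 6 metallothioneins in their summed CPM, in percent, as stacked bars with 1 bar per library and an axis that starts at 0. MT2A makes up 52.3 to 55.3% of the sum in the sgALAS1 libraries and at most 36.9% in any other library.

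Along chromosome 16, in the order of GENCODE 29, the members follow each other as MT2A, MT1E, MT1F, MT1G, MT1H and MT1X, with MT1A between MT1E and MT1F. In sgALAS1 cells the log2 fold change along this row was 0.75, -0.58, -1.02, -1.75, -4.79 and -0.36. Among the members, each step from MT2A to MT1H was more negative than the one before, and MT1X broke the row. Under SA the same row read -0.38, -0.63, -0.97, -0.92, -0.58 and -0.0028. The 5 tested genes on either side of the cluster, chosen after the values were seen, gave 0 calls of 10 in each arm by edgeR, with 2 in each at an unadjusted p under 0.05, and DESeq2 called 1 of them, CES1, under SA (adjusted p = 0.0256) and 0 in sgALAS1 cells. Their changes lay between -0.58 and 1.33 under SA and between -0.45 and 0.72 in sgALAS1 cells. The 694 tested genes of chromosome 16 had a median log2 fold change of 0.0071 under SA and -0.00070 in sgALAS1 cells. The reads of MT1X are less certain than those of the other members, because ENSG00000259827 overlaps it in GENCODE 29. That identifier is counted among the 10 flanking genes, with a change of 0.13 under SA and -0.37 in sgALAS1 cells. In the last 300 bases of the annotated transcript, 10 of 226 words of 75 bases in MT1X occurred also in that identifier's transcript, and for each of the other 7 members 0 of 226 words occurred in another gene. This search covers exact matches only, and the sources used here do not say how reads with several positions were treated.

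**Figure D4:**
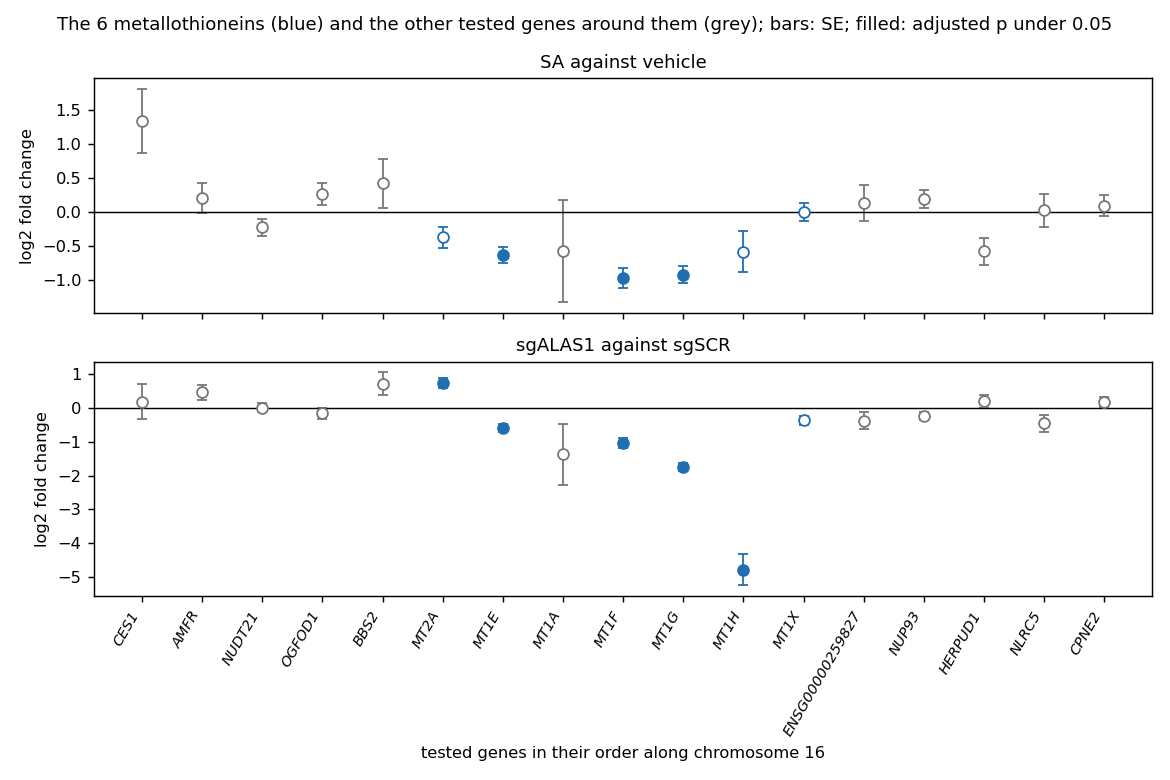
Log2 fold change with standard error of the 6 metallothioneins and of the other tested genes around them, in chromosomal order from left to right (not to distance), for SA over vehicle and sgALAS1 over sgSCR. MT1A and the 10 flanking genes, in grey, had 0 calls in either arm by edgeR's test (DESeq2 called CES1 under SA). In the sgALAS1 panel the members from MT2A to MT1H run downwards. MT1A, at -1.37 between MT1E and MT1F, lies outside that order.

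Of 13 other metallothionein genes and pseudogenes, 12 had an identifier and 6 of these had 0 reads in all libraries. MT1A was the 1 with enough reads to be tested. It held 6, 11 and 4 reads under SA, against 21, 7 and 10 reads in vehicle (log2 fold change -0.57, adjusted p = 0.704). It held 3, 0 and 4 reads in sgALAS1 cells, against 5, 6 and 9 reads in sgSCR cells (-1.37, adjusted p = 0.375). At so few reads neither change was detectable.

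Among the other carriers of zinc, 0 of 5 tested SLC30A exporters passed the test in either arm by edgeR, with 0 at an unadjusted p under 0.05 and 0 by DESeq2. Of 12 tested SLC39A importers, 4 rose and 2 fell under SA, set against 4.83% and 6.24% of all tested genes. In sgALAS1 cells 2 rose and 1 fell, set against 4.88% and 6.85%. The widest change among them in both arms was that of SLC39A4, the plasma membrane zinc importer of the gut, which had 56, 33 and 45 reads under SA, against 287, 119 and 136 reads in vehicle. It fell by 1.77 on the log2 scale (adjusted p = 6.03e-05). In sgALAS1 cells it had 0, 3 and 0 reads, against 264, 201 and 209 reads in sgSCR cells. The 3 reads in total against 674 made a 214-fold lower level, with a 95% exact counting interval of 73.0 to 1042. The SA effect on SLC39A4 was above the sgALAS1 effect (fitted difference 5.84, adjusted p = 1.12e-06, and 5.19 to 9.07 with single libraries left out, the highest without sgALAS1 replicate 2), though a fit to so few reads depends on the prior count. SLC39A14, an importer of zinc and iron, fell under SA (-1.02, adjusted p = 0.00307). Both genes lie on chromosome 8, where the 471 tested genes had a median log2 fold change of -0.25 under SA, with 4 higher and 84 lower, and of -0.34 in sgALAS1 cells, with 10 higher and 107 lower. The part of that shift in the 2 falls was not tested.

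SLC39A6 rose in both arms: it was read at 95.6, 106 and 97.0 CPM under SA, against 71.0, 80.6 and 77.3 CPM in vehicle, and at 108, 107 and 109 CPM in sgALAS1 cells, against 75.5, 69.4 and 74.2 CPM in sgSCR cells. The log2 fold change was 0.38 under SA (adjusted p = 0.0327) and 0.57 in sgALAS1 cells (adjusted p = 0.00120). SLC39A13, which carries zinc out of intracellular vesicles, rose by 0.63 under SA (adjusted p = 0.0260) and by 0.61 in sgALAS1 cells (adjusted p = 0.0293). SLC39A5 rose by 0.82 (adjusted p = 0.0269) and SLC39A1 by 0.43 (adjusted p = 0.0356) under SA. Under SA, SLC39A1 and SLC39A6 lost the call whichever single library was left out. The log2 fold change of SLC39A1 then lay between 0.36 and 0.47 (adjusted p up to 0.139) and that of SLC39A6 between 0.33 and 0.42 (adjusted p up to 0.115). The SLC39A13 call was lost without SA replicate 1 or vehicle replicate 2 or 3 in the drug arm (0.50 to 0.86 over the libraries left out, adjusted p up to 0.155). In the guide arm it was lost without sgALAS1 replicate 2 or sgSCR replicate 2 or 3 (0.47 to 0.78, adjusted p up to 0.160). SLC39A5 lost its call without SA replicate 1 or 3 or vehicle replicate 1 or 2 (0.76 to 0.92 over the libraries left out, adjusted p up to 0.105). The SLC39A6 call in sgALAS1 cells held with each library left out (0.54 to 0.59).

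**Figure D5:**
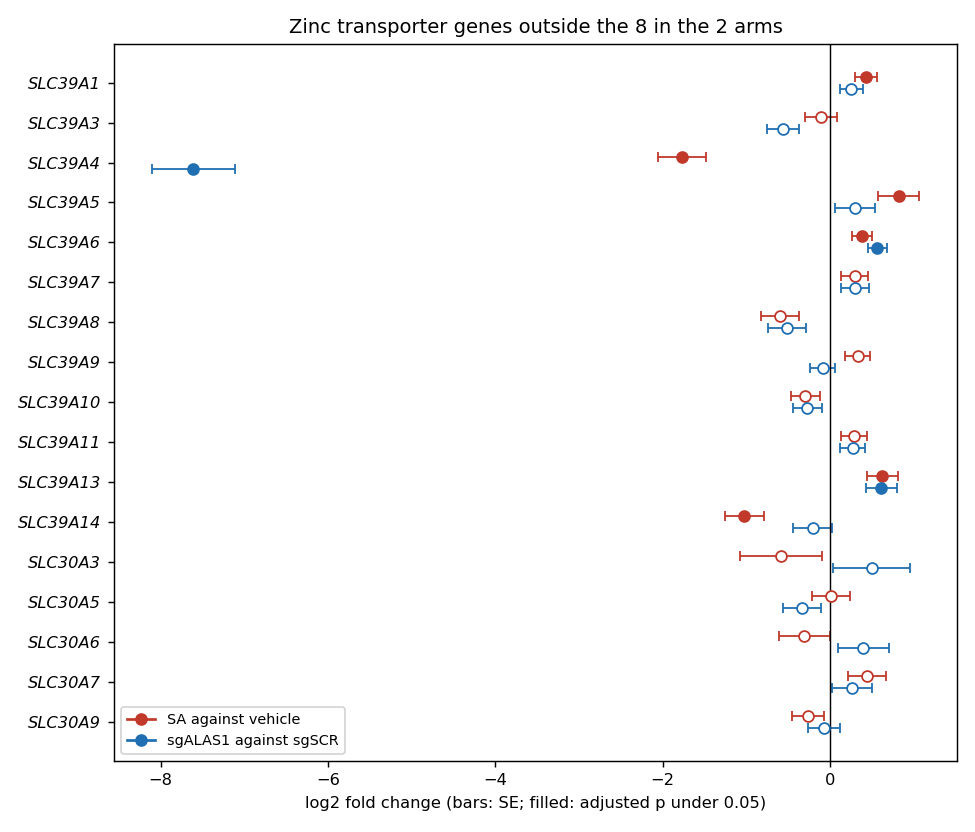
Log2 fold change with standard error of the tested zinc importers (SLC39A) and exporters (SLC30A), SA over vehicle and sgALAS1 over sgSCR. SLC39A4 lies lowest in both arms, and the exporters, with 0 calls among the 5 tested outside the members, spread around 0.

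Genes of copper handling and of the heat shock, oxidative and glucocorticoid responses gave mixed counts. For comparison, 4.83% of all tested genes rose and 6.24% fell under SA, and 4.88% rose and 6.85% fell in sgALAS1 cells. Of 12 tested copper transporters and chaperones, 0 passed in either arm by edgeR's quasi-likelihood test, with 1 under SA and 4 in sgALAS1 cells at an unadjusted p under 0.05, and DESeq2 called 0 in either arm. Of 10 heat shock genes that metals can induce, 4 rose under SA, among them HSPA8 (0.49, adjusted p = 0.00573) and DNAJB1 (0.66, adjusted p = 0.00797), and all 4 calls were lost without vehicle replicate 2. Without it HSPA8 was at 0.40 (adjusted p = 0.0515), DNAJB1 at 0.54 (adjusted p = 0.0719), and HSPA1B and HSP90AA1, the other 2, had adjusted p = 0.118 and 0.236. HSPA1B was lost also without SA replicate 1 or 3, and HSP90AA1 without any library but vehicle replicate 3. In sgALAS1 cells 0 of these 10 rose and 2 fell, HSPB1 (-0.66, adjusted p = 0.00266) and HSPA1A, a near-identical copy of HSPA1B whose reads may be shared with it (-1.95, adjusted p = 0.0310, lost in 5 of 6 cases with a library left out, sgALAS1 replicate 1 being the exception, with a highest adjusted p of 0.125). Among 10 oxidative stress and heme response genes (NRF2 and BACH1 targets), SA raised 4 and lowered 1, and in sgALAS1 cells 3 were higher and 1 lower. HMOX1, the heme-degrading enzyme, rose in both arms and was read at 22.0, 33.6 and 33.1 CPM under SA, against 2.90, 1.69 and 2.30 CPM in vehicle, and at 6.17, 5.09 and 14.6 CPM in sgALAS1 cells, against 1.59, 1.29 and 1.32 CPM in sgSCR cells. FKBP5, a target of the glucocorticoid receptor, fell in both arms, to 16.9, 17.1 and 10.2 CPM under SA, against 29.0, 24.4 and 28.0 CPM in vehicle (-0.89, adjusted p = 0.00674, lost without SA replicate 3 at adjusted p = 0.0725), and to 7.87, 9.81 and 11.1 CPM in sgALAS1 cells, against 38.8, 26.4 and 28.9 CPM in sgSCR cells (-1.72, adjusted p = 1.89e-06). It was 1 of 2 among 6 tested glucocorticoid targets to fall under SA and the 1 of 6 in sgALAS1 cells.

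Of 8 tested markers of monocyte and granulocyte maturation, 6 rose in each arm. This is set against 4.83% of all tested genes under SA and 4.88% in sgALAS1 cells. MT1E, MT1F and MT1G fell in each arm, and MT2A rose in sgALAS1 cells. The summed level of the 8 markers was 1834 to 2105 CPM under SA, against 662 to 809 CPM in vehicle. It was 1200 to 1355 CPM in sgALAS1 cells, against 382 to 475 CPM in sgSCR cells. LYZ alone averaged 1455 CPM under SA, 564 CPM in vehicle, 1030 CPM in sgALAS1 cells and 341 CPM in sgSCR cells. The part of the marker shift in the metallothionein values was not tested.

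Across the 12 libraries, the mean standardised profile of the 6 metallothioneins was followed by MT1E (Pearson r = 0.953), MT1G (0.935) and MT1F (0.932), less by MT1X (0.759) and MT1H (0.750), and not by MT2A (-0.142). Among 9400 genes outside the family whose mean log2 CPM was 3 or more, the profiles most like it were those of XBP1 (0.940), DTD1 (0.939), RPL11 (0.921), CLNS1A (0.921) and MCM2 (0.919). These r describe 4 groups of libraries that differ in treatment, over 12 points, and carry no test. Each metallothionein is itself part of the mean profile, which raises its r, while the genes outside the family are not part of it.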

How the data were processed

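The data are counts of QuantSeq 3′ tags in 12 libraries, 3 per group. The submitters' processing notes name bcl2fastq 2.17.1.14, cutadapt 1.14, HISAT2 2.0.4, featureCounts of Subread 2.0.0, edgeR 3.34.0 and limma 3.48.3, and the build hg19. The authors deposited raw read counts per Ensembl identifier without normalisation. Which annotation release and strand setting were used, and how reads with several positions were handled, is not given in the sources used, so members that share sequence could exchange reads.

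The analysis ran in R 4.3.3, with edgeR 4.0.16 for the main fit, and limma 3.58.1 and DESeq2 1.42.0 for alternatives. Identifiers kept by filterByExpr (13832) were fitted in all 12 libraries by group with TMM scaling and edgeR's two-sided quasi-likelihood F-test, followed by Benjamini-Hochberg adjustment and a threshold of 0.05. The spread between libraries of a group (biological coefficient of variation) was 16.4%. The SE is the log2 fold change divided by the square root of F. A current gene table named 51996 identifiers, and GENCODE 29 named 342 more. SA was compared with vehicle, sgALAS1 with sgSCR, the SA effect with the sgALAS1 effect, and sgSCR with vehicle. Alternatives changed the scaling, the filter, the tool, the groups in the fit, a replicate block and single libraries. Intervals on read ratios are exact at 95%. Pairs of libraries within a group differed by more than sampling noise (chi-square per degree of freedom 4.70 to 13.4), so no library appeared to be deposited more than once. This does not show that they came from separate cultures.

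The members and gene lists were chosen with earlier results of these data known. The rule for named genes covers all 8 members, ALAS1, up to 4 called genes per list and comparison by smallest p, and the 5 genes most like the metallothionein profile. SLC39A1 and, under SA, SLC39A6 fall outside it, and so do MT1A, the marker genes CD33, CD3E, HBB and HBA1 and the flanking genes of chromosome 16; these were chosen with their values in view.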

Additional observations from a re-analysis of the deposited data

Results flagged for a closer look

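The effects of the 2 arms differed by the test of the difference itself (SA effect minus sgALAS1 effect, log2, edgeR's quasi-likelihood test) for 3 of the 8 members. MT1H differed by 4.21 (adjusted p = 2.51e-05) and MT1G by 0.82 (adjusted p = 0.0106), both with the more negative change in sgALAS1 cells, and MT2A by -1.12 (adjusted p = 0.00282), with the more positive change in sgALAS1 cells. Each of these calls held in all 12 cases with a library left out.

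Outside the members, the same test separated the arms for SLC39A4 by 5.84 (adjusted p = 1.12e-06), on chromosome 8 and with 3 reads in the sgALAS1 group, all of them in replicate 2. Without that library the fitted difference was 9.07, and with each of the other libraries left out it was at least 5.19. ALAS1 differed by 2.16 (adjusted p = 1.14e-08): it was read at 106, 102 and 111 CPM under SA, against 37.5, 36.4 and 31.1 CPM in vehicle, and fell in sgALAS1 cells. NQO1, an oxidative stress gene, differed by 1.01 (adjusted p = 0.00788). It averaged 117 CPM under SA, against 24.2 CPM in vehicle, and 121 CPM in sgALAS1 cells, against 50.6 CPM in sgSCR cells. The controls themselves differed, with NQO1 higher in sgSCR than in vehicle by 1.06 (adjusted p = 1.68e-04). S100A9, a maturation marker, differed by 1.33 (adjusted p = 0.0127), a call lost with limma-voom (1.26, adjusted p = 0.122), without sgSCR replicate 1 (adjusted p = 0.100) and without sgSCR replicate 3 (1.24, adjusted p = 0.0578).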

How the results depend on the processing

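Over all alternatives, 424 member values kept direction and call, 24 changed sign, 6 gained a call and 2 lost one. The 24 sign changes concerned values near 0 that had no call. MT1X under SA was 0.0072 with RLE scaling, 0.0072 with DESeq2, 0.018 with limma-voom, 0.012 with the replicate block and 0.0074 in a fit of its 2 groups alone. MT1F between the arms was -0.0023 and MTF1 in sgSCR against vehicle -0.014 with library totals alone. MT1H in sgSCR against vehicle was 0.037 with limma-voom and 0.013 with the block. With single libraries left out, MT1X under SA ranged over -0.13 to 0.18, MTF1 over -0.061 to 0.31 in sgALAS1 and -0.085 to 0.20 in sgSCR against vehicle, MT1H in sgSCR against vehicle over -0.23 to 0.17, and between the arms MT1F over -0.12 to 0.20 and MT1E over -0.13 to 0.015. The cause was not tested.

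Members called numbered 3 to 5 under SA, 5 to 6 in sgALAS1, 3 for the difference and 0 between controls with 1 library left out. Genes called ranged over 954 to 1595 under SA (1531 with all libraries), the lowest without SA replicate 3 (954), vehicle replicate 2 (955) and SA replicate 1 (982), over 1134 to 1415 in sgALAS1 (1622), over 109 (without sgSCR replicate 1) to 340 (without vehicle replicate 1) for the difference (164), and over 84 (without sgSCR replicate 1) to 276 between controls (198), with 104 without vehicle replicate 2. No filter gave 277 for the difference, and DESeq2 gave 300 between controls.

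Over all tested genes, same-numbered libraries were not more alike (residual correlations -0.0661 to 0.0572) than others (-0.152 to 0.109), so replicate numbers were not taken as pairs. For MT1E, MT2A and the summed metallothioneins, however, replicate 2 was the highest library in every group. For each of the other members this did not hold in every group. Whether the replicate numbers mark something shared for these genes was not tested. With a replicate block, 1704 genes were called under SA, 1796 in sgALAS1, 227 for the difference and 266 between controls, with 5, 6, 3 and 0 members; MT2A under SA (-0.35, adjusted p = 0.0322) and MT1X in sgALAS1 (-0.36, adjusted p = 0.0463) were the additions. Depth limits genes with few reads, among them MT1H, MT1A, HSPA1A and SLC39A4.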
